A study of Homo sapiens with 6 samples.

Results

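The 37 genes described here encode the enzymes of glycolysis, the transporters that move glucose in and lactate out, a few regulators of glycolytic flux, the hypoxia-inducible factors (HIF) with their oxygen sensors, and HIF targets with no part in glycolysis. They were taken by gene symbol, under a rule that uses no measured value, from the 58825 genes in the deposited tables. The set was nevertheless chosen with earlier results of these data known. Each of the 37 had a row, and all 37 passed the filter on low counts that left 20295 genes for testing. By role there were 5 HIF subunits and oxygen sensors, 3 transporters, 16 glycolytic enzymes, 3 flux regulators and 10 non-glycolytic HIF targets.

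Glycolysis splits glucose into pyruvate, and lactate dehydrogenase then converts pyruvate to lactate, which leaves the cell through monocarboxylate transporters. The alpha subunits HIF-1α and HIF-2α are hydroxylated by prolyl hydroxylases and degraded when oxygen is plentiful. When oxygen is scarce they pair with ARNT, bind hypoxia response elements with the core A/GCGTG and raise transcription of many glycolytic genes together with genes for pH control, mitophagy and collagen modification. Tumor cells often keep glycolysis high with oxygen present.

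RNA was sequenced from NCI-H460, an established human lung cancer line, carrying lentiviral shRNA against GFP (NC-shRNA, 3 libraries) or against PRMT5 (PRMT5-shRNA, 3 libraries). PRMT5 is an arginine methyltransferase that makes symmetric dimethylarginine. Cells of both groups were infected with lentivirus and kept as stable lines in RPMI-1640, and no oxygen level is stated. A total of 3 hairpins against PRMT5 had been designed, and which of them the sequenced cells carried is not given in the sources used here, so 1 hairpin and 1 stable line may stand behind the group. The labels give the control hairpin's target as GFP, while the methods list a control shRNA without a target, and the 2 were taken to be the same. The methods call the 3 libraries of a group biological replicates, but whether they came from separate cultures of a line or from separate infections is not given in the sources used here, so p-values measure the spread between these libraries.

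PRMT5 itself was at 35.7, 32.5 and 33.5 FPKM (fragments scaled by transcript length and library size) in NC-shRNA and at 12.2, 12.04 and 10.2 FPKM in PRMT5-shRNA. The groups did not overlap, and the log2 fold change was -1.62 (SE 0.094, edgeR quasi-likelihood test, Benjamini-Hochberg adjusted p = 0.0063), which left 32.6% of the control level. With the replicate number as a block the adjusted p of PRMT5 was 0.144. Total counts ran from 53531257 to 70518401 per library. Of 6 epithelial keratin and adhesion markers, the summed level was 343.7 to 361.3 FPKM in NC-shRNA and 317.9 to 328.5 FPKM in PRMT5-shRNA. Keratins made up nearly all of it. The adhesion markers EPCAM and CDH1 were low, at 0.32 to 0.52 and 0.1 to 0.3 FPKM over the 6 libraries. The labels call the line a lung adenocarcinoma, yet its 6 alveolar lineage markers summed to at most 0.23 FPKM in any library, with SFTPA1 and SFTPA2 at 0. Summed markers of endothelial, fibroblast and blood cells were at most 23.3, 12.7 and 10.6 FPKM and their ranges overlapped between groups, with COL1A2, PDGFRA and CD3E at 0. VWF, an endothelial gene, had 0 counts in each NC-shRNA library and 128, 105 and 122 in PRMT5-shRNA. KDR and CLEC14A also had 0 counts in each NC-shRNA library, with 12, 22 and 26 and with 27, 31 and 15 in PRMT5-shRNA. PECAM1 had 30, 5 and 8 counts in NC-shRNA and 104, 100 and 109 in PRMT5-shRNA. ESAM, the largest part of the endothelial sum, went the other way, at 14.4, 14.2 and 13.3 FPKM in NC-shRNA and 12.2, 12.3 and 12.7 FPKM in PRMT5-shRNA. COL3A1, a fibroblast gene, was at 0.89 to 1.09 FPKM in NC-shRNA and 1.61 to 1.99 FPKM in PRMT5-shRNA. PDGFRB (0.4 to 0.48 against 0.66 to 0.77 FPKM) and LAPTM5 (0.21 to 0.27 against 0.54 to 0.72 FPKM) were also higher without overlap. HBA1 (1.74 to 1.85 against 0.76 to 1.21 FPKM) and LYZ (0.32 to 0.54 against 0 to 0.31 FPKM) were lower without overlap. The part of these markers in the results was not tested, and in bulk RNA, fewer cells of a kind and less RNA per cell cannot be told apart.

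No gene of the 37 passed an adjusted p of 0.05 in edgeR, where 0.0690% of all tested genes did (14 of 20295). At an unadjusted p under 0.05, 3 of the 37 were higher in PRMT5-shRNA, against 6.54% of all genes tested, and 8 were lower, against 6.29%. In either direction that is 11 of 37 or 29.7%, against 12.8% of all genes. The 8 lower genes were GPI, PFKL, PFKM, GAPDH, PGK1, PGAM1, ENO1 and SLC16A3, and the 3 higher genes were HIF1A, EPAS1 and SLC2A3. A design of 3 libraries against 3 allows no exact permutation p below 0.10. The DESeq2 alternative called 3 of the 37 at an adjusted p of 0.05, namely SLC2A3, SLC16A3 and GPI, against 3.17% of the genes for which it gave an adjusted p.

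**Figure D1:**
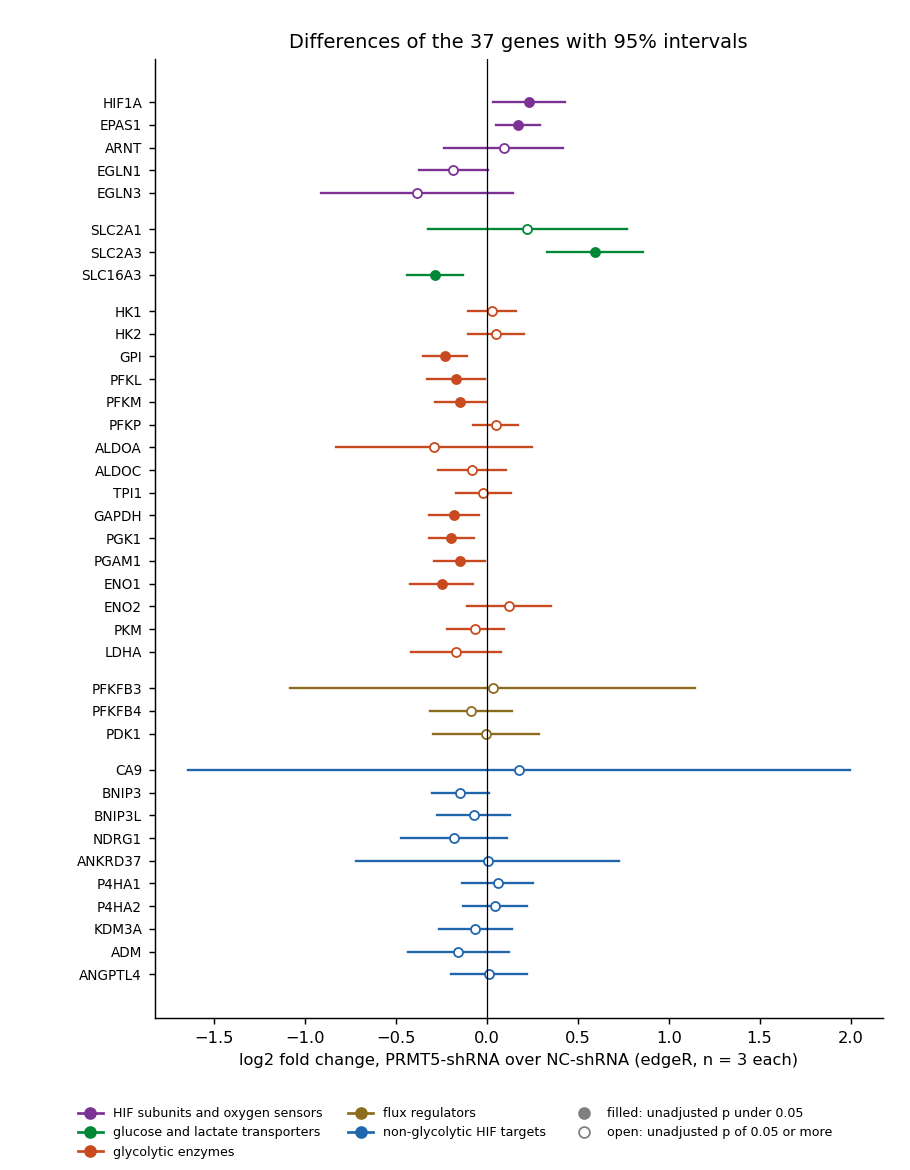
Log2 fold change of each of the 37 genes, PRMT5-shRNA over NC-shRNA (horizontal axis), from edgeR with n = 3 libraries a group. Bars are 95% intervals, colors mark the role, and filled points have an unadjusted p under 0.05. Of the 16 enzymes 12 lie left of 0, while the 10 non-glycolytic HIF targets lie 5 on each side of it.

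Promoter sequences are shown for genes on either side of the contrast that these genes were assembled for, since both kinds are known for hypoxia response elements. PGK1, ENO1 and GAPDH are abundant enzymes that were lower in PRMT5-shRNA, and CA9 and BNIP3 are HIF targets outside glycolysis. Each run holds the 250 bases before a RefSeq transcription start in GRCh38.p14, read 5′ to 3′ on the strand of the gene. The windows are chrX:78103998-78104247 on the plus strand for PGK1, chr1:8878687-8878936 on the minus strand for ENO1, chr12:6535014-6535263 on the plus strand for GAPDH, chr9:35673678-35673927 on the plus strand for CA9 and chr10:131981924-131982173 on the minus strand for BNIP3. Capitals mark the core of the hypoxia response element, ACGTG or GCGTG, or its reverse complement, CACGT or CACGC, with overlapping matches joined.
PGK1: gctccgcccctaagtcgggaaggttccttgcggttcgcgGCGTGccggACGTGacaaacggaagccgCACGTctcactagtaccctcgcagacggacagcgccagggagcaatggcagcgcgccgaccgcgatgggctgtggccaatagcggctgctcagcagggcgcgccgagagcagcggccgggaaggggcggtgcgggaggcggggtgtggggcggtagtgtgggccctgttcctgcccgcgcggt
ENO1: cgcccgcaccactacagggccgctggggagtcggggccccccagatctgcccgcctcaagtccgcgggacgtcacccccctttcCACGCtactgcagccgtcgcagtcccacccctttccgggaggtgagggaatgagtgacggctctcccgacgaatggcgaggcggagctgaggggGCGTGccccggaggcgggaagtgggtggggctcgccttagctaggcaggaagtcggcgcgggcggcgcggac
GAPDH: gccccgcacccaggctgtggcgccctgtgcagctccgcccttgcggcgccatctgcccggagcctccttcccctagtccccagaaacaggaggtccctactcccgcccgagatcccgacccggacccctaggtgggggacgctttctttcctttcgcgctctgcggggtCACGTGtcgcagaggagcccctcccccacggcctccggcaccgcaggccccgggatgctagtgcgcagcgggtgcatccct
CA9: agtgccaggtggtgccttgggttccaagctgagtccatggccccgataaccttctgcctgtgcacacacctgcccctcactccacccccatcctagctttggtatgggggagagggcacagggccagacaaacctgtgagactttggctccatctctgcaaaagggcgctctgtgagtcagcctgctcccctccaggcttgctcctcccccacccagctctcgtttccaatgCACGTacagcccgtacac
BNIP3: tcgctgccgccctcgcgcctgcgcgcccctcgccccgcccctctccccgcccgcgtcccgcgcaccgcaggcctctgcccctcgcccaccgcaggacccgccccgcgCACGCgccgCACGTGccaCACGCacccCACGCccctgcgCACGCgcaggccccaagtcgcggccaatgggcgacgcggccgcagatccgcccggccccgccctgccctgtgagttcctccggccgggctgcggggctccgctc
The core was found in 3 places for PGK1, 2 for ENO1, 1 for GAPDH, 1 for CA9 and 5 for BNIP3. In GAPDH it was the palindrome CACGTG, which reads as a core on both strands and began 81 bases before the start, and in CA9 it began 18 bases before the start.

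RefSeq promoters were matched for 34 of the 37 genes. SLC2A3, BNIP3L and NDRG1 had no entry. The 34 genes had 62 promoters, of which 37 (59.7%) held the core, against 43.2% of all 35116 promoters of the same length. For the 16 enzymes it was 19 of 36 promoters (52.8%), and for the 8 matched non-glycolytic targets 8 of 9 (88.9%). A gene with several starts counts several times in these shares. HK1 and PFKM each had many promoters, most of them without the core, so the shares do not compare the sets gene by gene. A match of 5 letters is a description of the sequence and not a measured binding site.

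Both HIF alpha subunits were higher in PRMT5-shRNA. HIF1A, the oxygen-labile alpha subunit of HIF-1, was at 50.8, 58.8 and 59.5 FPKM in NC-shRNA and at 66.3, 64.3 and 76.6 FPKM in PRMT5-shRNA. EPAS1, which encodes HIF-2α, was at 23.8, 25.7 and 24.9 FPKM in NC-shRNA and at 29.3, 28.3 and 29.7 FPKM in PRMT5-shRNA. Every PRMT5-shRNA library lay above every NC-shRNA library for both genes. The log2 fold change was 0.23 for HIF1A (SE 0.083, 95% interval 0.04 to 0.43, edgeR unadjusted p = 0.0264, adjusted p = 0.323). For EPAS1 it was 0.17 (SE 0.051, 95% interval 0.05 to 0.29, edgeR unadjusted p = 0.0127, adjusted p = 0.282). HIF1A made up 69.4% ± 1.19 of the summed FPKM of the pair in NC-shRNA and 70.3% ± 1.54 in PRMT5-shRNA (SD, n = 3 each), so that their proportion overlapped between groups. HIF proteins are controlled mainly by degradation, which RNA-seq does not measure.

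ARNT, the shared partner subunit, was at 7.81 to 10.3 FPKM in NC-shRNA and 8.43 to 11.4 FPKM in PRMT5-shRNA, and the groups overlapped. EGLN1, the main prolyl hydroxylase that marks HIF alpha for degradation, was at 11.8, 13.7 and 12.8 FPKM in NC-shRNA and at 10.7, 11.9 and 12.5 FPKM in PRMT5-shRNA. Its FPKM overlapped, whereas its CPM (counts scaled to library size with TMM factors) did not, at 104.4, 118.4 and 108.7 against 89.2, 99.3 and 103.5. The log2 fold change was -0.18 with a 95% interval of -0.37 to 0.01 (edgeR unadjusted p = 0.0586). EGLN3, a prolyl hydroxylase that is itself a HIF target, was low at 0.94 to 1.21 FPKM in NC-shRNA and 0.61 to 1.03 FPKM in PRMT5-shRNA, with a log2 fold change of -0.38 (95% interval -0.91 to 0.14). EGLN3 overlaps SPTSSA on the same strand, which had 7749 to 10696 counts per library against 296 to 694 for EGLN3. How reads of overlapping genes were assigned is not given in the sources used here.

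SLC2A3 (chr12:7919230-7936275, minus strand) had the largest log2 fold change of the 37 genes in the edgeR fit. It encodes GLUT3, a glucose transporter of high affinity, and was at 5.46, 6.71 and 7.40 FPKM in NC-shRNA and at 9.43, 10.3 and 11.1 FPKM in PRMT5-shRNA. The groups did not overlap, and the log2 fold change was 0.60, a 1.51-fold higher level (SE 0.11, 95% interval 0.33 to 0.86). The edgeR quasi-likelihood test gave an unadjusted p of 0.00113 and an adjusted p of 0.168, and DESeq2 an adjusted p of 0.00107.

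SLC2A1, which encodes GLUT1, the main glucose transporter of many tumor cells, was at 11.1, 11.02 and 6.10 FPKM in NC-shRNA and at 10.6, 11.8 and 12.1 FPKM in PRMT5-shRNA. NC-shRNA replicate 3 stood well below the other 5 libraries, which lay close together. The log2 fold change was 0.22 (95% interval -0.32 to 0.77), and without that library it was -0.02. The summed FPKM of both glucose transporters was 15.9 ± 2.18 in NC-shRNA and 21.8 ± 1.60 in PRMT5-shRNA (SD, n = 3 each), and the libraries did not overlap (exact permutation test, two-sided, p = 0.10, the smallest this design allows). The lowest of these sums, 13.5 FPKM, was that of NC-shRNA replicate 3.

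SLC16A3 (chr17:82228397-82261129, plus strand), which encodes the lactate exporter MCT4, was lower in PRMT5-shRNA. It was at 15.6, 14.7 and 14.4 FPKM in NC-shRNA and at 13.0, 12.8 and 12.6 FPKM in PRMT5-shRNA, with no overlap. The log2 fold change was -0.28 (SE 0.064, 95% interval -0.44 to -0.13), with an edgeR adjusted p of 0.203 and a DESeq2 adjusted p of 0.0308. SLC16A3 overlaps CSNK1D on the opposite strand, and whether the counting used strand is not given in the sources used here. Set beside SLC16A1 (MCT1), the other main lactate transporter, SLC16A3 held 38.2% ± 3.84 of the summed FPKM of the pair in NC-shRNA and 35.0% ± 0.763 in PRMT5-shRNA (SD, n = 3 each), and these shares overlapped.

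Of the 16 glycolytic enzymes, 7 (43.8%) were lower in PRMT5-shRNA at an unadjusted p under 0.05 and none was higher, against 6.29% lower and 6.54% higher over all genes. The log2 fold change was negative for 12 of the 16, with a median of -0.15, and ran from -0.29 (ALDOA) to 0.12 (ENO2). The median over all genes tested was 0.0075. The 7 lower enzymes also had CPM values that did not overlap between groups, as had 10.7% of all genes in that direction. Without PRMT5-shRNA replicate 3 the count was 3 of 16, and with library totals in place of TMM scaling it was 4 of 16, with a median of -0.098. Leaving out PRMT5-shRNA replicate 3 also lowered the number of all genes past an unadjusted p of 0.05 in either direction, from 2605 to 1963.

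Among the lower enzymes, GPI, which isomerizes glucose 6-phosphate to fructose 6-phosphate, was at 40.0, 41.9 and 41.4 FPKM in NC-shRNA and at 38.1, 36.1 and 35.4 FPKM in PRMT5-shRNA. Every PRMT5-shRNA library lay below the NC-shRNA libraries. Its log2 fold change was -0.23 (SE 0.052, 95% interval -0.35 to -0.11), with an edgeR adjusted p of 0.203 and a DESeq2 adjusted p of 0.0396.

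GAPDH, the dehydrogenase often used as a reference gene, was the most abundant of the 37 at 2230, 2077 and 2099 FPKM in NC-shRNA and 1976, 2020 and 1901 FPKM in PRMT5-shRNA. PGK1, which makes the first ATP of the payoff phase, was at 195.8, 189.1 and 190.1 FPKM in NC-shRNA and at 175.9, 178.8 and 169.5 FPKM in PRMT5-shRNA. ENO1, the main enolase, was at 471.5, 476.6 and 482.8 FPKM in NC-shRNA and at 443.8, 435.2 and 376.3 FPKM in PRMT5-shRNA. None of these 3 genes had overlapping groups, and PRMT5-shRNA replicate 3 was the lowest library for each of them. The log2 fold changes were -0.18 for GAPDH (95% interval -0.32 to -0.04), -0.19 for PGK1 (-0.32 to -0.07) and -0.25 for ENO1 (-0.42 to -0.08). Their edgeR adjusted p values were 0.301, 0.250 and 0.271. PGK1 overlaps ATP7A on the same strand, which had 1587 to 2155 counts per library beside at least 59672 for PGK1.

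PGAM1, which moves the phosphate of phosphoglycerate, was at 198.6, 202.1 and 208.0 FPKM in NC-shRNA and at 199.6, 194.5 and 177.9 FPKM in PRMT5-shRNA. Its FPKM overlapped between groups while its CPM did not, and the log2 fold change was -0.15 (95% interval -0.29 to -0.01, edgeR adjusted p = 0.365). PFKL and PFKM, the liver and muscle forms of phosphofructokinase, likewise overlapped in FPKM and not in CPM. PFKL was at 9.59, 9.39 and 10.5 FPKM in NC-shRNA and at 9.48, 9.18 and 8.60 FPKM in PRMT5-shRNA, and PFKM at 20.3, 21.2 and 22.3 FPKM against 20.9, 18.9 and 20.4 FPKM. Their log2 fold changes were -0.17 (95% interval -0.33 to -0.01, edgeR adjusted p = 0.364) and -0.15 (95% interval -0.28 to -0.01, edgeR adjusted p = 0.370). PFKM overlaps SENP1 on the opposite strand.

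The other 9 enzymes did not pass an unadjusted p of 0.05. HK2, the hexokinase often raised in tumors, was at 24.4, 28.1 and 27.8 FPKM in NC-shRNA and at 27.8, 29.3 and 29.5 FPKM in PRMT5-shRNA, with a log2 fold change of 0.05 (95% interval -0.10 to 0.20). LDHA, the lactate dehydrogenase form most linked to HIF, was at 219.0, 207.2 and 171.4 FPKM in NC-shRNA and at 183.9, 190.4 and 181.3 FPKM in PRMT5-shRNA. NC-shRNA replicate 3 was the lowest of the 6 libraries for LDHA, and the log2 fold change was -0.17 (95% interval -0.41 to 0.08). It was -0.28 without that library and -0.08 without NC-shRNA replicate 1, and LDHA passed no adjusted p of 0.05 in either case. HK1, PFKP, ALDOC, TPI1, ENO2 and PKM had log2 fold changes from -0.08 to 0.12, each with an interval that included 0. ENO2 overlaps LRRC23 on the same strand, which had 432 to 654 counts per library beside 1436 to 2170 for ENO2.

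ALDOA, the main aldolase, had the widest spread of the abundant enzymes, at 166.8, 151.8 and 161.3 FPKM in NC-shRNA and 135.0, 182.2 and 91.6 FPKM in PRMT5-shRNA. Its log2 fold change was -0.29 with a 95% interval of -0.83 to 0.25. An annotated gene on the same strand, ENSG00000285043, overlaps ALDOA (chr16:30064164-30070457, plus strand). Its CPM was 254.4, 236.6 and 216.1 in NC-shRNA and 221.1, 107.3 and 372.1 in PRMT5-shRNA, while that of ALDOA was 797.3, 708.6 and 738.0 against 604.5, 823.0 and 408.2. PRMT5-shRNA replicate 2, with the most ALDOA of the 6 libraries, had the least of the overlapping gene, and PRMT5-shRNA replicate 3, with the least ALDOA, had the most of it. In NC-shRNA there was no such inverse order, and replicate 1 was the highest of its group for both genes. The 2 genes together gave 1052, 945.2 and 954.1 CPM in NC-shRNA and 825.6, 930.2 and 780.4 CPM in PRMT5-shRNA, which did not overlap. With the counts summed, a step chosen after the values were seen, the log2 fold change was -0.22 (95% interval -0.41 to -0.03, edgeR unadjusted p = 0.0298, adjusted p = 0.334).

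**Figure D2:**
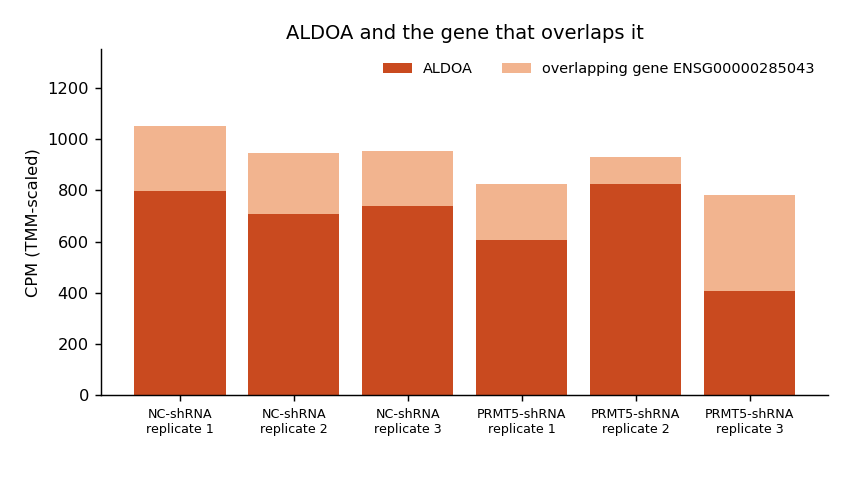
TMM-scaled CPM (vertical axis, from 0) of ALDOA (dark) and of the overlapping gene ENSG00000285043 (light), stacked for each of the 6 libraries. PRMT5-shRNA replicate 3 has 408.2 CPM of ALDOA and 372.1 CPM of the overlapping gene, and the stacked totals of the 3 PRMT5-shRNA libraries lie below those of the 3 NC-shRNA libraries.

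The mix of forms within a step differed between the groups without overlap in phosphofructokinase and enolase, while the shares of hexokinase, aldolase and lactate dehydrogenase forms overlapped. In phosphofructokinase, the platelet form PFKP held 56.3%, 55.7% and 55.9% of the summed FPKM in NC-shRNA and 59.1%, 59.8% and 59.3% in PRMT5-shRNA. The groups did not overlap, while the summed FPKM of the 3 forms did, at 70.6 ± 3.28 in NC-shRNA and 71.7 ± 2.29 in PRMT5-shRNA (SD, n = 3 each). In enolase the sum was 485.3 ± 6.10 FPKM in NC-shRNA and 429.5 ± 36.5 FPKM in PRMT5-shRNA (SD, n = 3 each), without overlap, and nearly all of it was ENO1. The hexokinase sum went the other way in FPKM, at 65.9 ± 1.87 FPKM in NC-shRNA and 70.0 ± 1.63 FPKM in PRMT5-shRNA (SD, n = 3 each), also without overlap. In CPM its members HK1, HK2 and HKDC1 each overlapped between groups, with log2 fold changes of 0.03, 0.05 and -0.13. The share of the minor muscle form ENO3 was 0.576%, 0.619% and 0.637% in NC-shRNA and 1.17%, 1.11% and 1.25% in PRMT5-shRNA, again without overlap. That of ENO2, the neuronal form, was 1.10% ± 0.039 in NC-shRNA and 1.43% ± 0.258 in PRMT5-shRNA (SD, n = 3 each). Each of these differences in share or summed FPKM gave p = 0.10 in the exact two-sided permutation test except that of the phosphofructokinase sum (p = 0.60). LDHB, and not LDHA, made up 64.3% ± 2.70 of lactate dehydrogenase in NC-shRNA and 64.3% ± 0.219 in PRMT5-shRNA (SD, n = 3 each), with overlap.

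**Figure D3:**
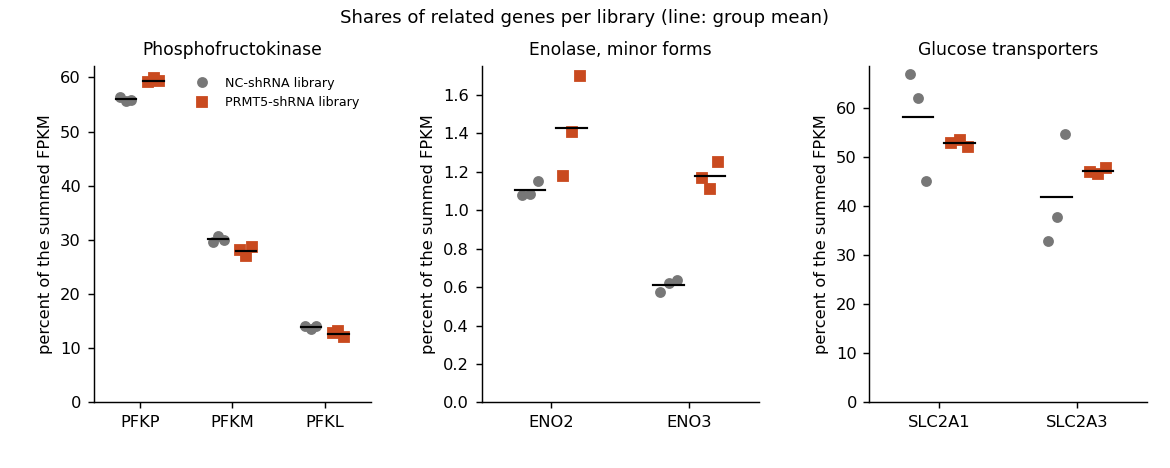
Percent of the summed FPKM of each step held by each gene (vertical axes, from 0), per library, for phosphofructokinase (left), the minor enolases (middle) and the pair of glucose transporters (right). Circles are NC-shRNA, squares PRMT5-shRNA and lines group means. The mean share of PFKP is 56.0% in NC-shRNA and 59.4% in PRMT5-shRNA, ENO3 has no overlap between groups, and the glucose transporter shares overlap.

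The flux regulators gave no difference beyond their spread. PFKFB3, which makes the phosphofructokinase activator fructose 2,6-bisphosphate, was at 1.83, 5.18 and 2.35 FPKM in NC-shRNA and at 2.31, 2.36 and 5.31 FPKM in PRMT5-shRNA. NC-shRNA replicate 2 and PRMT5-shRNA replicate 3 were high and the other 4 libraries low, and the log2 fold change was 0.03 (95% interval -1.08 to 1.15). PFKFB4, its relative, stayed between 2.16 and 2.47 FPKM over the 6 libraries. PDK1, which inhibits pyruvate dehydrogenase, had a log2 fold change of -0.003 (95% interval -0.30 to 0.29) and made up 1.72% ± 0.116 of the summed FPKM of the 4 PDK genes in NC-shRNA and 1.63% ± 0.059 in PRMT5-shRNA (SD, n = 3 each), PDK4 being the main one.

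None of the 10 non-glycolytic HIF targets passed an unadjusted p of 0.05 in either direction, against 12.8% of all genes, and 5 log2 fold changes were positive and 5 negative. Their median was -0.03. CA9, the tumor-associated carbonic anhydrase that is among the most HIF-dependent genes, was at 0.23, 1.28 and 2.09 FPKM in NC-shRNA and at 0.66, 1.01 and 2.53 FPKM in PRMT5-shRNA. It was low in every library with full overlap, and its interval was wide, with a log2 fold change of 0.18 (95% interval -1.64 to 1.99). CA9 overlaps ARHGEF39 on the opposite strand, which had a mean count of 659.7 beside 31 to 267 per library for CA9.

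BNIP3, a mitophagy receptor, was at 14.1, 14.7 and 15.3 FPKM in NC-shRNA and at 13.1, 14.7 and 13.7 FPKM in PRMT5-shRNA. Its CPM values did not overlap, and the log2 fold change was -0.15 (95% interval -0.30 to 0.01, edgeR unadjusted p = 0.0621). Its relative BNIP3L was at 8.65 to 10.7 FPKM in NC-shRNA and 9.19 to 10.04 FPKM in PRMT5-shRNA. NDRG1, a stress-response gene, was at 6.03 to 8.15 FPKM in NC-shRNA and 6.02 to 7.51 FPKM in PRMT5-shRNA, with a log2 fold change of -0.18 (95% interval -0.47 to 0.11).

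P4HA1 and P4HA2, the catalytic subunits of collagen prolyl hydroxylase, had log2 fold changes of 0.06 (95% interval -0.13 to 0.25) and 0.04 (95% interval -0.13 to 0.22). KDM3A, a histone H3K9 demethylase, had a log2 fold change of -0.06 (95% interval -0.26 to 0.14). The secreted factors ADM, a vasodilator peptide, and ANGPTL4, an inhibitor of lipoprotein lipase, had log2 fold changes of -0.16 (95% interval -0.43 to 0.12) and 0.01 (95% interval -0.19 to 0.22). ANKRD37 was below 1 FPKM in every library, with a 95% interval of the log2 fold change from -0.72 to 0.73. It overlaps UFSP2 on the opposite strand, which had a mean count of 678.7 beside 63 to 176 per library for ANKRD37. For 8 of the 10 targets the 95% interval lay within 0.5 log2 units of 0 on both sides, and for CA9 and ANKRD37 it did not.

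The contrast between enzymes and non-glycolytic targets was a difference of medians of 0.12 log2 units, with the targets above the enzymes. It was -0.001 without NC-shRNA replicate 1 and 0.18 without PRMT5-shRNA replicate 1. Each library was also summarized by the median deviation of its log2 CPM from each gene's NC-shRNA mean, which centers the NC-shRNA values by construction. The enzymes were at 0.009, -0.02 and -0.02 in NC-shRNA and at -0.11, -0.11 and -0.16 in PRMT5-shRNA, without overlap. The targets were at -0.09, 0.04 and 0.04 in NC-shRNA and at -0.18, 0.05 and -0.02 in PRMT5-shRNA, with overlap. The difference between the 2 sets of genes was not tested.

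The sets also differed in level. The median of the mean FPKM was 83.2 for the enzymes and 5.30 for the non-glycolytic targets. Over all genes the difference between the groups moved with the level, and of the 306 genes with a mean of at least 100 FPKM, 33.0% were lower at an unadjusted p under 0.05 and 87.9% had a negative log2 fold change. Their median was -0.14, and it was -0.14 as well over the 298 that are not among the 37. From 10 to 100 FPKM the median was -0.07, and from 1 to 10 FPKM it was 0.02. In these 2 classes 16.9% and 4.91% of the genes were lower at an unadjusted p under 0.05. The 8 enzymes with at least 100 FPKM had a median of -0.17, with 4 of 8 lower, and the 8 enzymes under 100 FPKM had a median of -0.02, with 3 of 8 lower. Whether the level accounts for any of the enzymes' lower values was not tested. These level classes were chosen after the values were seen.

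**Figure D4:**
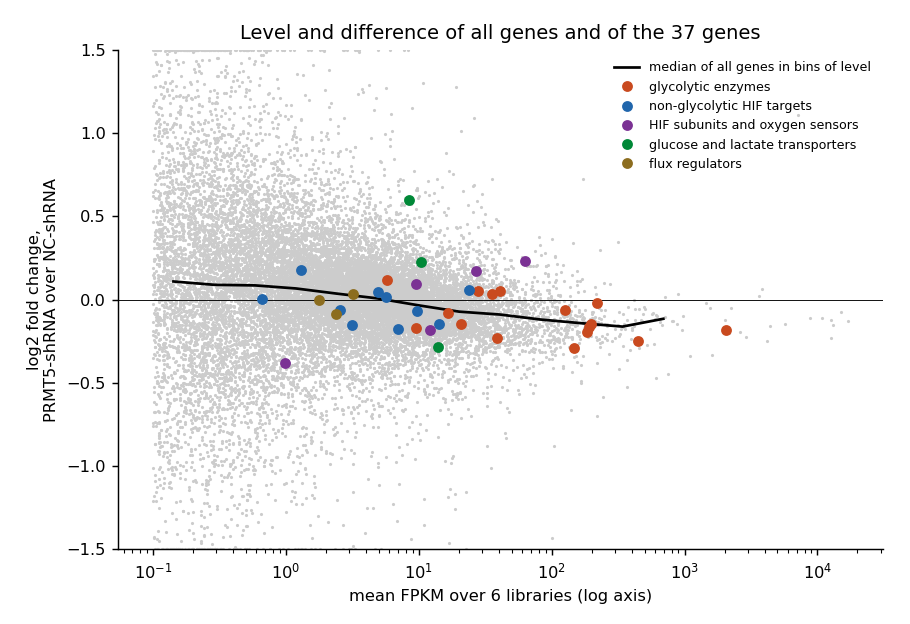
Mean FPKM over the 6 libraries (horizontal, log axis) against the log2 fold change, PRMT5-shRNA over NC-shRNA (vertical), for all genes tested with at least 0.1 FPKM (grey, values beyond 1.5 drawn at the edge) and the 37 genes (colors by role). The black line, the median of all genes in bins of level, goes below 0 as the level rises, and the abundant enzymes lie around it, while SLC2A3 lies far above and SLC16A3 below.

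Genes of the same pathways outside the 37 were taken from lists made for comparison, with 82 of 92 tested. At an unadjusted p under 0.05, 14 were higher (17.1%) and 6 lower (7.32%), against 6.54% and 6.29% of all genes. None passed an adjusted p of 0.05 in edgeR, while DESeq2 called 7, against 3.17% of the genes for which it gave an adjusted p. Among 12 regulators of HIF, 1 was higher and 1 lower (8.33% each), near the shares of all genes. CITED2, a HIF-induced protein that competes with HIF for its coactivators, was at 13.0, 12.9 and 12.5 FPKM in NC-shRNA and at 10.6, 11.4 and 11.1 FPKM in PRMT5-shRNA (log2 fold change -0.28, edgeR adjusted p = 0.245). HIF3A was at no more than 0.11 FPKM in any library, with a log2 difference of 1.66 (edgeR, adjusted p = 0.168).

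Among 33 further HIF targets tested, 8 (24.2%) were higher and 2 (6.06%) lower at an unadjusted p under 0.05, against 6.54% and 6.29% of all genes. PPP1R3C, a glycogen-targeting subunit of protein phosphatase 1, was at 20.9, 23.4 and 24.6 FPKM in NC-shRNA and at 32.9, 32.5 and 32.0 FPKM in PRMT5-shRNA. Its groups did not overlap (log2 fold change 0.44, SE 0.066, edgeR adjusted p = 0.11, DESeq2 adjusted p = 0.000123). BHLHE40, a transcriptional repressor, had a log2 difference of 0.24 (edgeR, adjusted p = 0.255), and LOXL2, a lysyl oxidase, 0.20 (edgeR adjusted p = 0.273). CA12, a carbonic anhydrase related to CA9, had a log2 difference of -0.34 (edgeR adjusted p = 0.196), and FAM162A, a mitochondrial protein, -0.21 (edgeR adjusted p = 0.282). For each of these 5 genes the groups did not overlap in CPM, as in 11.0% of all genes higher and 10.7% lower. The median of these 33 was -0.03, the same to 2 decimals as that of the 10 targets among the 37.

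Of 13 further glycolysis genes tested, 2 were higher and 2 lower (15.4% each), against 6.54% and 6.29% of all genes. ENO3 was at 2.76, 3.0 and 3.13 FPKM in NC-shRNA and at 5.30, 4.96 and 4.84 FPKM in PRMT5-shRNA, a 1.63-fold higher level without overlap (log2 fold change 0.70, SE 0.089, edgeR adjusted p = 0.090, DESeq2 adjusted p = 3.36e-08). ENO3 overlaps PFN1, a far more abundant gene, on the opposite strand. PFKFB2 had a log2 difference of 0.19 (edgeR, adjusted p = 0.311), LDHB -0.16 (edgeR adjusted p = 0.297) and BSG, the chaperone of the lactate transporters, -0.37 (edgeR adjusted p = 0.297).

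Of 12 genes of pyruvate oxidation, PDP1 was higher and PDHA1 lower (8.33% each), against 6.54% and 6.29% of all genes. PDP1, the phosphatase that activates pyruvate dehydrogenase, was at 1.13, 1.21 and 1.23 FPKM in NC-shRNA and at 2.23, 2.63 and 2.63 FPKM in PRMT5-shRNA, a 2.01-fold higher level (log2 fold change 1.004, SE 0.11, edgeR adjusted p = 0.0574, DESeq2 adjusted p = 4.88e-11). PDHA1, the catalytic subunit that PDP1 dephosphorylates, had a log2 difference of -0.17 (edgeR, adjusted p = 0.287). Of 6 gluconeogenesis genes tested, PCK2, the mitochondrial phosphoenolpyruvate carboxykinase, had a log2 difference of 0.52 (edgeR, adjusted p = 0.168, DESeq2 adjusted p = 0.00176), and PCK1 had a log2 difference of 1.02 at no more than 0.12 FPKM (edgeR adjusted p = 0.272). None of the 6 pentose phosphate genes with a row passed an unadjusted p of 0.05, against 12.8% of all genes.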

How the data were processed

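RNA-seq of NCI-H460 cells was analysed for 3 NC-shRNA and 3 PRMT5-shRNA libraries, grouped by the labels. The count table that the authors deposited holds estimated counts, not normalized and already whole, and the other deposited table holds FPKM values, which scale for transcript length and library size. Per the submitters' processing notes, the tools were cutadapt 1.9, HISAT2 2.0.4 and StringTie 1.3.4d with GRCh38, while the methods text names a mouse build. Low counts gather at 4 (1214 to 1319 genes per library), and how multi-mapped or overlapping reads were divided is not given in the sources used here. The methods name a stranded library kit, without saying whether counting used strand, and another RNA extraction reagent than the labels.

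Counts were tested with edgeR 4.0.16 in R 4.3.3 (filterByExpr, TMM, quasi-likelihood, Benjamini-Hochberg over 20295 genes). The design was planned for raw counts and was kept for estimated counts. DESeq2 1.42.0 and limma 3.58.1 on log2(FPKM + 1) were alternatives. CPM values were TMM-scaled, and levels between genes were compared in FPKM. Total counts were 53531257 to 70518401, and intervals cover the spread between libraries. No pair of libraries within a group was a duplicate, and pairs across groups were not checked. Deviations of same-numbered libraries correlated at 0.001, -0.04 and 0.06 over 10487 genes. That shows no shared deviation over all genes, and it cannot tell whether same-numbered libraries shared a culture or batch. The edgeR step was checked on simulated data.

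The 37 genes and the comparison lists were chosen with earlier results of these data known. The text names all 37, PRMT5 and, per comparison list, the genes with an unadjusted p under 0.05, at most the 6 with the smallest p, except 1 gene that is not reported here. The shares within a step, the level classes and the summed ALDOA counts were chosen after values were seen. Gene positions came from GENCODE 29 (58552 of 58825 identifiers matched) and promoters from RefSeq, GRCh38.p14. One gene of the comparison lists, PGLS, was not analysed here.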

Additional observations from a re-analysis of the deposited data

How the results depend on the processing

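Over 19 alternatives the 37 genes kept their direction and their side of the threshold in 664 of 703 values, and 3 values (SLC2A3, SLC16A3 and GPI in DESeq2) newly passed it. DESeq2 called 530 genes and 3 of the 37 at an adjusted p of 0.05. Lower genes and lower enzymes were counted at an unadjusted p under 0.05 in each fit. With library totals, limma on log2(FPKM + 1), limma on log2(FPKM + 0.1) and limma without a filter, the lower genes numbered 5, 5, 5 and 4 of the 37 and the lower enzymes 4, 4, 4 and 3, with enzyme medians of -0.0979, -0.0862, -0.0881 and -0.0862. Those fits reversed TPI1 (0.0309, 0.0431, 0.0433 and 0.0431) and PDK1 (0.0441, 0.0386, 0.0604 and 0.0386), and limma on log2(FPKM + 0.1) also ANKRD37 (-0.0031). Limma without a filter called 5 genes, and genes with a mean count of at least 100 gave 0.0033 for PDK1.

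With the replicate block, edgeR called 0 genes at an adjusted p of 0.05, and PRMT5, at -1.62, had an edgeR adjusted p of 0.144. At an unadjusted p under 0.05 in that fit, 4 enzymes were lower and 1 non-glycolytic target passed. PRMT5 passed that threshold as well (edgeR unadjusted p = 7.45e-06). PDK1 (0.0035) and ANKRD37 (-0.0581) reversed. Same-numbered libraries did not deviate together over all genes, and why calls were lost with the block was not tested. A length correction called 22 genes with an enzyme median of -0.1205 and TPI1 at 0.0221. The replicate block with it called 0 genes at an adjusted p of 0.05, with PRMT5 at -1.59 (edgeR adjusted p = 0.101). In that fit 1 non-glycolytic target passed an unadjusted p of 0.05. The enzyme median was -0.1195, with TPI1 at 0.0245 and ANKRD37 at -0.009.

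Leaving out 1 library at a time gave 8 to 25 called genes at an adjusted p of 0.05, 0 of them among the 37. At an unadjusted p under 0.05 there were 5 to 8 lower genes of the 37, 3 to 6 lower enzymes and 0 to 1 non-glycolytic targets. The enzyme median ran from -0.17 to -0.10, that of transporters and flux regulators from -0.10 to 0.19 and the difference of medians from -0.0011 to 0.18. Genes that reversed ran as follows: ARNT -0.0063 to 0.21, SLC2A1 -0.0214 to 0.38, HK1 -0.0071 to 0.0624, TPI1 -0.0631 to 0.0285, PFKFB3 -0.47 to 0.61, PDK1 -0.11 to 0.0702, CA9 -0.55 to 0.82, ANKRD37 -0.33 to 0.24, P4HA1 -0.0007 to 0.11, P4HA2 -0.0074 to 0.0875 and ANGPTL4 -0.0097 to 0.041. The causes of these changes were not tested.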

Other observations

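In pyruvate oxidation, PDP2, the other pyruvate dehydrogenase phosphatase, was at 0.19, 2.16 and 4.77 FPKM in NC-shRNA replicates 1, 2 and 3 and at 0.13, 2.57 and 5.29 FPKM in PRMT5-shRNA replicates 1, 2 and 3. The same-numbered libraries of the 2 groups thus lay close together while libraries of 1 group spread widely, and the log2 fold change was 0.12 with a 95% interval of -2.91 to 3.16. CA9 likewise had its lowest value in replicate 1 and its highest in replicate 3 of both groups. PDP2 was singled out after its values were seen, and the labels give no culture or date that would tie same-numbered libraries.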
